A study of Mus musculus with 12 samples.

Results

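Shox2, Irx1, Irx2, Rgs16, Ramp3, Tnnt1, Tcf7l2, Lhx9, Foxp2 and Amotl1 are 10 genes known for strong expression in the thalamus, taken here from 21186 gene names on a mouse expression array. They were read by 20 of the 34891 named probes, which were found by gene name. The genes were chosen because of their difference between En2-/- and wild-type hippocampus in these same arrays, so the hippocampal differences below are a description and carry no test. The description under which they were chosen, raised in the mutant hippocampus, held on every detected probe for Shox2, Irx1, Irx2, Rgs16 and Ramp3. It held for Tcf7l2 and Tnnt1 with the overlaps given below, and the brightest probes of Lhx9, Foxp2 and Amotl1 did not show it.

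Total RNA from whole hippocampus and whole cerebellum of adult mice was labelled with Cy3 and hybridised to 1-colour Agilent arrays, 12 in all. Each tissue was represented by 3 arrays of En2WT mice (WT) and 3 of En2KO mice (En2-/-, shown as KO in the plots), which lack the homeobox domain of the homeobox gene engrailed-2 in every cell and were the littermates of the WT mice. The line came from a mixed 129Sv x C57BL/6 and outbred background and was crossed repeatedly into C57BL/6. Whether hippocampus and cerebellum arrays of the same replicate number came from the same mouse is not stated in the labels.

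The thalamus is the relay between the senses, the cerebellum and the cerebral cortex, and lies directly beneath the hippocampus. Its excitatory neurons are set apart during development by transcription factors, among them Tcf7l2, the transcriptional partner of beta-catenin in Wnt signalling, and the LIM homeobox gene Lhx9, while Shox2 and the Iroquois genes Irx1 and Irx2 are homeobox genes kept on in thalamic nuclei. Several of these genes are also used elsewhere in the brain, Foxp2 in Purkinje cells and Irx genes in the cerebellum for example.

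The arrays read each gene through 60-base probes, and the probes of one gene sit at different places in its transcript or in different transcripts. The following probes are shown because the results turn on them: the single Shox2 and Tnnt1 probes, the upstream Irx1, Irx2 and Tcf7l2 probes whose hippocampal difference was smaller than on another probe or was read on few or no arrays well above background, and the Foxp2 and Lhx9 probes that departed from the brighter probe of their gene or went the other way. Capitals mark the longest run of bases that the Irx1 and Irx2 probes share.
Shox2: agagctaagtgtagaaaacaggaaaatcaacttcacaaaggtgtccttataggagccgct
Irx1: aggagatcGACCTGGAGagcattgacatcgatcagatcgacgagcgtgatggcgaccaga
Irx2: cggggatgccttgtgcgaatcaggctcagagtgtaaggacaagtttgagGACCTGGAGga
Tcf7l2: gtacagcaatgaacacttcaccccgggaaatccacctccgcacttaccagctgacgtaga
Lhx9: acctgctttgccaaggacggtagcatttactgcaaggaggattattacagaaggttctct
Foxp2: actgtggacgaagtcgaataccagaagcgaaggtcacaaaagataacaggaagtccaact
Tnnt1: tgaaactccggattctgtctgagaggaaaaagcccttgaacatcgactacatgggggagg
In mm9, the build of the array annotation, these probes lay at chr3:66779435-66779814 (Shox2, minus strand), chr13:72097289-72097348 (Irx1, minus), chr13:72768784-72768843 (Irx2, plus), chr19:55982975-55983034 (Tcf7l2, plus), chr1:140735266-140736499 (Lhx9, minus), chr6:15363873-15365044 (Foxp2, plus) and chr7:4460086-4460145 (Tnnt1, minus). All were placed within transcripts, and the intervals longer than 60 bases (Shox2, Lhx9 and Foxp2) crossed an intron. Across the 175 pairs of probes to different genes of the 10, no pair shared a run longer than 9 bases, and the best ungapped overlap held 29 identical bases of 60. The Irx1 and Irx2 probes shown had 23 identical bases in their best overlap.

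The genes lay on chromosomes 1, 3, 6, 7, 9, 11, 13 and 19, none of them on chromosome 5, which carries En2. Irx1 and Irx2 were neighbours on chromosome 13, with 671.4 kb between their probes. Rgs16 and Lhx9 shared chromosome 1 but were 14856 kb apart.

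Over all genes, the fit of limma to the hippocampus called 507 of 23774 probes at an adjusted p under 0.05, which is 2.13%, with 0.858% higher and 1.27% lower in En2-/-. In the cerebellum 145 of 25053 probes were called, or 0.579%, with 0.243% higher and 0.335% lower. Of the hippocampal probes with a value on every array, 13.8% had all 3 En2-/- arrays above all 3 WT arrays and 13.9% had them all below. In the cerebellum these shares were 5.98% and 7.53%. The median difference over all probes was 0.01 in hippocampus and -0.0029 in cerebellum on the log2 scale. The tissue labels matched the summed normalized intensity of hippocampal and cerebellar markers. The hippocampal list ran from 42004 to 53978 in WT hippocampus and from 8709 to 8960 in WT cerebellum. The cerebellar list ran from 28290 to 42024.5 and from 194819 to 255700. The cortical list did not separate the tissues, at 6725 to 7724 and 5195 to 9221. The granule cell gene Fat2 was well above background on no hippocampus array, but Gabra6, of the same cells, was detected in En2-/- hippocampus. The cortical genes Tbr1 and Fezf2 were well above background on no cerebellum array, while Lamp5 averaged 11.29 in WT hippocampus and 11.99 in WT cerebellum. In whole tissue, more cells of a type and more RNA per cell cannot be told apart.

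In hippocampus 14 of the 20 probes, covering all 10 genes, were read well above background by all 3 arrays of at least 1 genotype, and these entered the fit (tested probes, below). Of those 14, 7 probes had every En2-/- array above every WT array, 7 overlapped and 0 lay below. Among the 7, the Shox2 probe and the Irx2 probe at base 1717 entered only through the En2-/- arrays. They were well above background on 0 and 1 of the WT arrays. Since the genes were chosen on this contrast, the count is set beside the 13.8% of all probes only as a description. Of the 6 dimmer probes, 3 had every En2-/- array above every WT array. The share over all probes as dim is not given, so nothing is read from this count.

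Shox2, a homeobox transcription factor needed in the developing limb and heart, was well above background on all En2-/- and no WT hippocampus arrays. Its normalized log2 intensities were 1.93, 2.21 and 2.0 in WT hippocampus (mean 2.05 ± 0.15 SD, n = 3) and 5.45, 5.22 and 5.32 in En2-/- hippocampus (mean 5.33 ± 0.12 SD, n = 3). The gap between the groups was 3.00. The measured difference was 3.28 (SE 0.17). Because no WT signal was well above background, the fold is only a bound, at least 1.88-fold higher in En2-/-, taken against the lowest signal well above background on each WT array. By background correction with the normexp method the same probe differed by 0.64, and in the authors' own processed values by 0.63, with the mean higher in En2-/- each time. Within each of the 3 slides, which each carried 1 array of every group, the difference was 3.53, 3.00 and 3.32.

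The Iroquois homeobox genes Irx1 and Irx2 were both higher on their downstream probes. For Irx1 the probe at base 1947 of the transcript read 6.08, 5.96 and 6.70 in WT and 8.24, 7.84 and 8.48 in En2-/- hippocampus, all well above background. That was a difference of 1.94 (SE 0.26), or 3.84-fold, without overlap. It fell to 1.31 with normexp and 1.34 in the authors' processed values. The upstream Irx1 probe, at base 896, was not well above background on any hippocampus array.

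Irx2 was near the detection limit in WT hippocampus. Its probe at base 1717 read 3.46, 1.98 and 4.61 in WT, where 1 of 3 arrays was well above background, and 5.27, 5.57 and 6.77 in En2-/-, where all 3 were. The difference was 2.52 (SE 0.65), falling to 0.70 with normexp and 0.70 in the authors' processed values. The probe at base 1500 also had every En2-/- array above every WT array (2.87, 3.49 and 3.82 against 4.18, 4.85 and 6.09). Only 1 En2-/- array and no WT array was well above background there, so no fold is given. The third Irx2 probe was well above background on none of the 6 arrays.

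Tcf7l2 had a higher mean in En2-/- hippocampus on its 3 tested probes, with sizes that depended on the probe. The brightest, at base 3494, read 9.85, 10.69 and 9.73 in WT and 11.58, 11.15 and 11.72 in En2-/-, a difference of 1.39 (SE 0.29) or 2.62-fold. The probe at base 2368 differed by 1.36 (SE 0.28), with values from 4.67 to 5.47 in WT and from 6.12 to 6.91 in En2-/-, and by 0.64 with normexp. Neither of these probes overlapped between the genotypes.

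The upstream Tcf7l2 probe shown above, at base 1077, did overlap. It read 5.17, 5.34 and 4.36 in WT and 5.47, 5.31 and 5.75 in En2-/-, a difference of 0.55 (SE 0.28) that became 0.25 without WT replicate 3 and 0.18 with normexp or in the authors' processed values. The remaining Tcf7l2 probe, from another transcript of the gene, was not well above background on any hippocampus array.

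The signalling genes Rgs16 and Ramp3 were bright in both genotypes. Rgs16, which shortens signalling by G proteins, read 9.69, 9.5 and 9.44 in WT and 11.03, 10.37 and 10.87 in En2-/- hippocampus, a difference of 1.21 (SE 0.21) or 2.32-fold. Ramp3, an accessory protein that sets the ligand specificity of calcitonin-family receptors, read 9.84, 9.05 and 9.52 in WT and 11.40, 10.59 and 11.15 in En2-/-. Its difference was 1.58 (SE 0.28), or 2.99-fold. In both genes the lowest En2-/- array was replicate 2, and it still lay above the highest WT array.

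Tnnt1, the troponin T of slow skeletal muscle, was split among the En2-/- mice. It read 8.39, 9.1 and 9.0 in WT and 11.05, 8.74 and 11.06 in En2-/- hippocampus. Replicates 1 and 3 lay well above the WT arrays, while replicate 2 lay inside the WT range. The difference of 1.45 (SE 0.59) became 2.22 without En2-/- replicate 2. By slide it was 2.66, -0.36 and 2.06.

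Lhx9 did not follow the genes above. Its brightest probe, at base 1841, read 9.61, 10.46 and 10.13 in WT and 10.14, 9.76 and 9.90 in En2-/- hippocampus, which overlapped, with a difference of -0.13 (SE 0.24). The other 2 probes also had lower means in En2-/-, by -0.40 (SE 0.21) for the probe at base 812 and -0.47 (SE 0.40) for the probe shown, at base 790. The bases of the Lhx9 probes are counted on different transcripts, and these 2 probes lie apart in the genome. All 3 probes overlapped between genotypes. The difference of the brightest probe turned to 0.06 without WT replicate 2.

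Foxp2, the forkhead transcription factor linked to speech and vocal learning, depended on the probe. The brighter one, at base 4061, read 6.79, 7.14 and 7.95 in WT and 7.25, 7.17 and 7.43 in En2-/- hippocampus, a difference of -0.01 (SE 0.29) that ran from -0.26 to 0.32 over the 6 fits that each dropped 1 array. The probe shown, at base 2375, read 2.86, 3.06 and 4.45 in WT and 4.80, 4.90 and 5.27 in En2-/-, without overlap. Only 1 WT and 2 En2-/- arrays were well above background there, so that it was not carried into the fit.

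Amotl1, an angiomotin-family protein of cell junctions, read 6.50, 5.56 and 6.70 in WT and 6.98, 5.54 and 6.41 in En2-/- hippocampus on its probe at base 5029. The difference was 0.06 (SE 0.42) and ran from -0.29 to 0.44 over the same 6 fits. Its other probe was well above background on none of the 6 arrays, with readings from 3.33 to 3.45 in WT and from 3.77 to 4.08 in En2-/-.

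**Figure D1:**
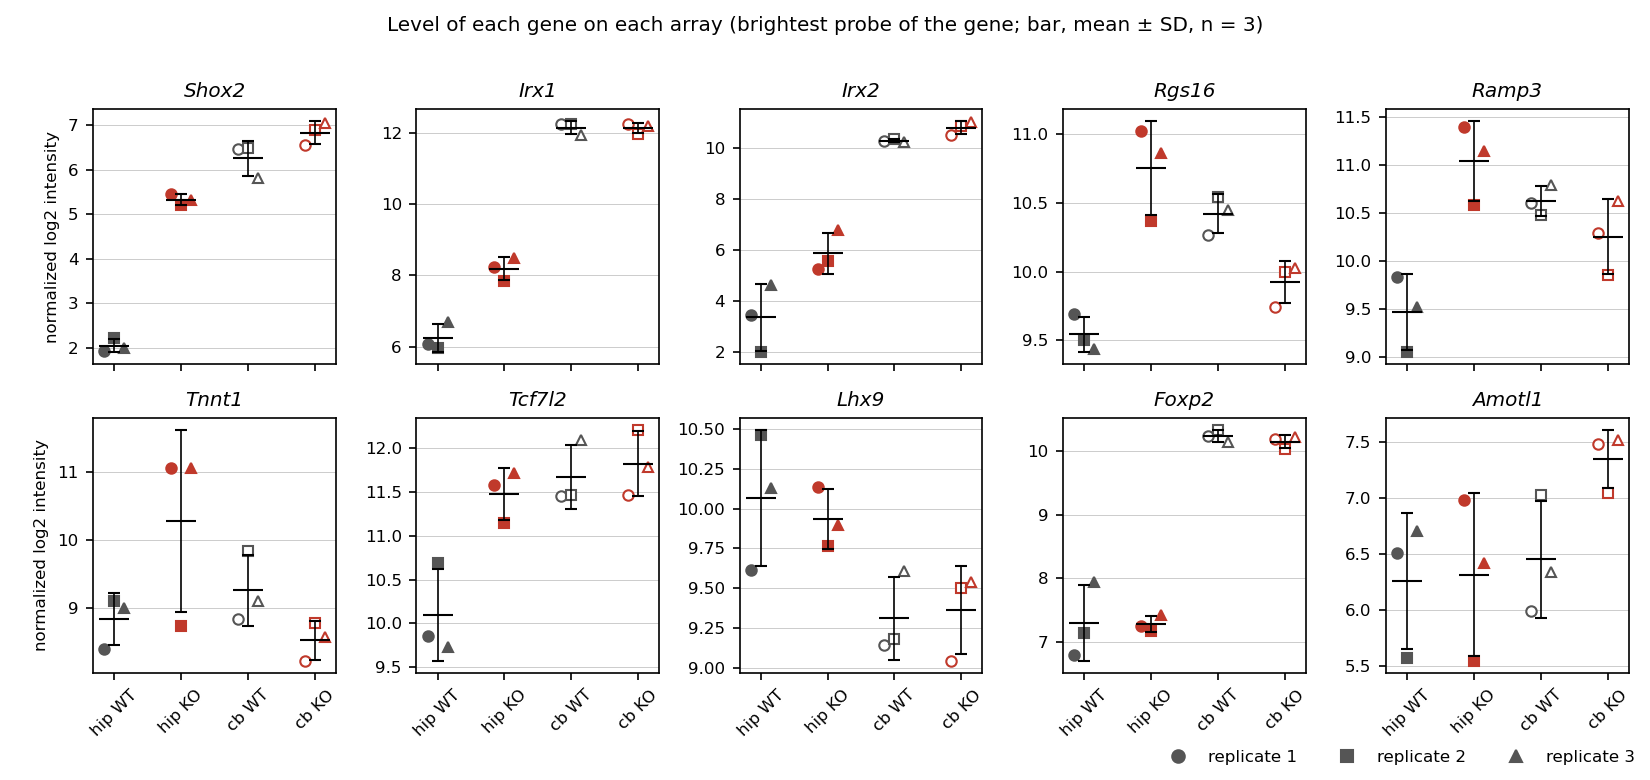
Normalized log2 intensity (vertical axis, own scale in each panel) of the brightest probe of each gene on the 12 arrays, by group; hip, hippocampus; cb, cerebellum; grey, WT; red, KO; filled, hippocampus; open, cerebellum; marker shape, replicate number; black bars, mean ± SD of 3 arrays. Shox2 sat at 1.93 to 2.21 in WT and 5.22 to 5.45 in KO hippocampus, whereas the Lhx9, Foxp2 and Amotl1 arrays of the 2 genotypes overlapped there.

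The cerebellum gave a contrast that the choice of genes did not use. None of the 18 probes that were well above background on every cerebellum array of at least 1 genotype passed limma's test, with the lowest Benjamini-Hochberg adjusted p at 0.45 over all probes, against 0.579% of all probes called. At an unadjusted p under 0.05 there were 5 of the 18, 3 with a higher and 2 with a lower mean in En2-/-, against 8.0% of all probes, and no alternative processing called any of them. The 18 probes had a median difference of 0.20, 11 with a higher and 7 with a lower mean. Among them 4 had every En2-/- array above every WT array and 2 had every one below, to be read against 5.98% and 7.53% of all probes.

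Shox2 read 6.47, 6.49 and 5.81 in WT and 6.55, 6.91 and 7.06 in En2-/- cerebellum, a difference of 0.58 (SE 0.26) with an adjusted p of 0.64 by limma. The groups did not overlap, but the gap between them was 0.06. The 2 bright Irx2 probes differed by 0.54 (SE 0.21) and 0.51 (SE 0.21), with adjusted p values of 0.57 and 0.61 by limma and no overlap on either. For Irx2 the probe at base 1717 read 10.31, 10.36 and 10.25 in WT and 10.53, 10.87 and 11.05 in En2-/-.

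Irx1 was nearly level in the cerebellum, at 12.25, 12.24 and 11.92 in WT and 12.25, 11.97 and 12.17 in En2-/- on the probe at base 1947, a difference of -0.01 (SE 0.20, adjusted p = 1.00 by limma). The upstream Irx1 probe, undetected in hippocampus, was well above background on 2 of 3 WT and all 3 En2-/- cerebellum arrays. Its readings of 6.90, 6.30 and 3.67 in WT and 6.50, 6.41 and 5.74 in En2-/- overlapped, with a difference of 0.59 (SE 0.75) that turned to -0.39 without WT replicate 3.

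The signalling and contractile genes leaned the other way in this tissue. Rgs16 read 10.27, 10.55 and 10.45 in WT and between 9.75 and 10.03 in the 3 En2-/- cerebella, a difference of -0.50 (SE 0.20, adjusted p = 0.58 by limma). Tnnt1 read 8.83, 9.83 and 9.10 in WT and 8.21, 8.77 and 8.57 in En2-/-, a difference of -0.73 (SE 0.30, adjusted p = 0.60 by limma). In neither gene did the genotypes overlap, and neither passed the test.

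Ramp3 read 10.61, 10.48 and 10.80 in WT and 10.29, 9.85 and 10.63 in En2-/- cerebellum, a difference of -0.37 (SE 0.25, adjusted p = 0.80 by limma) with overlap. Amotl1 had the lowest unadjusted p of the 10 genes, 0.018 in limma's fit across all probes. It read 5.99, 7.02 and 6.33 in WT and 7.48, 7.04 and 7.51 in En2-/- cerebellum, a difference of 0.90 (SE 0.30, adjusted p = 0.45 by limma) with a gap of only 0.02 between the groups.

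The remaining tested probes of Tcf7l2, Lhx9, Foxp2 and Irx2 overlapped between genotypes in the cerebellum. Their differences ran from -0.20 for the Lhx9 probe at base 790 to 0.57 (SE 0.26, adjusted p = 0.66 by limma) for the Lhx9 probe at base 812. The brightest probes gave 0.15 (SE 0.28) for Tcf7l2, 0.05 (SE 0.24) for Lhx9 and -0.09 (SE 0.19) for Foxp2.

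**Figure D2:**
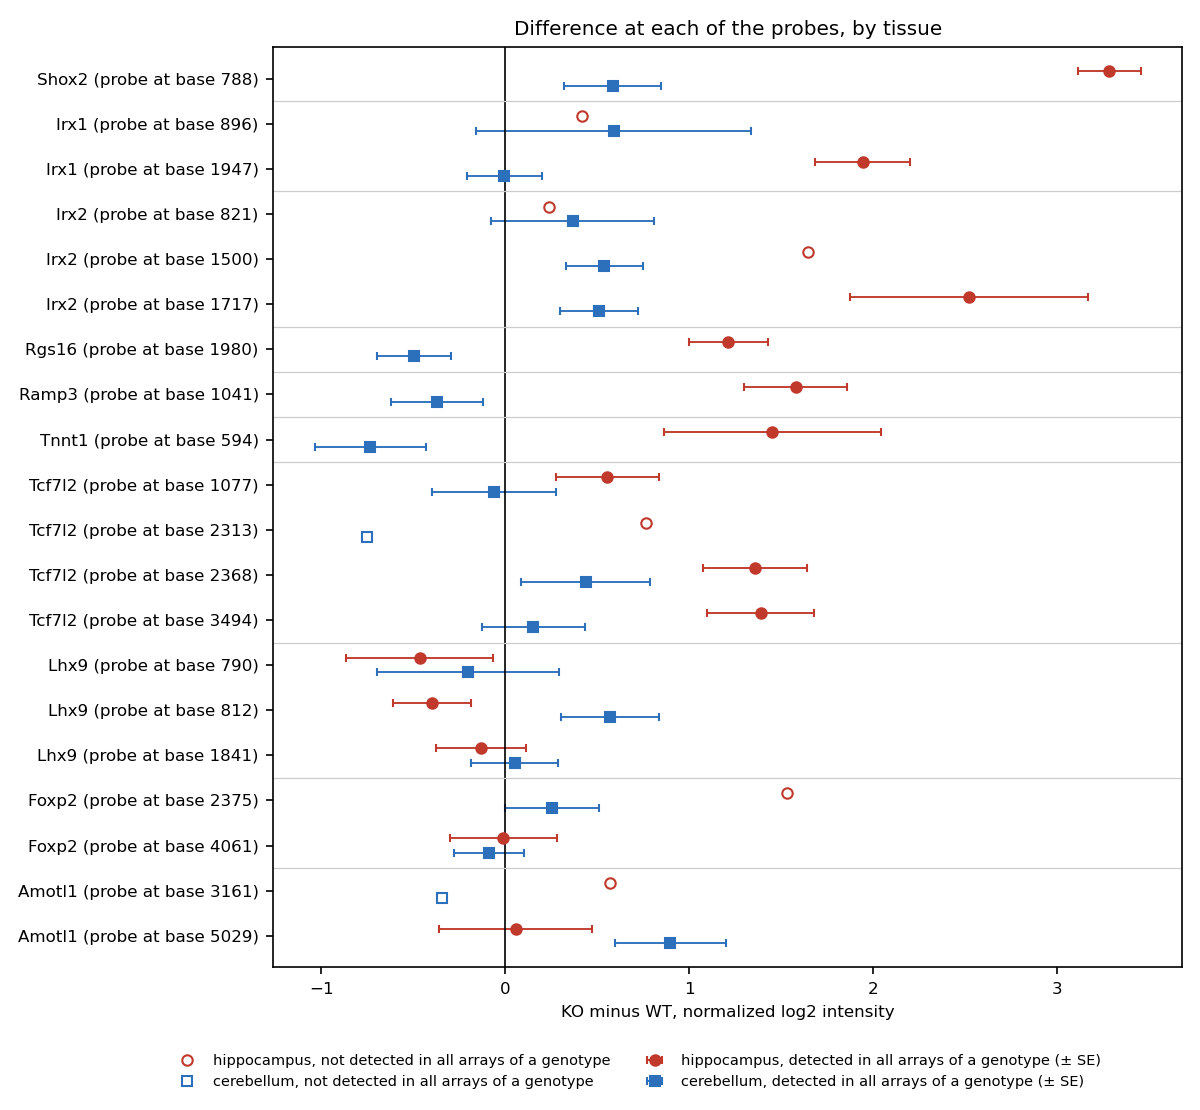
Difference KO minus WT in normalized log2 intensity (horizontal axis) for each of the 20 probes, named by gene and by the base of the transcript where the probe starts; red circles, hippocampus; blue squares, cerebellum; bars, ± standard error from limma; open symbols, probes not well above background on all arrays of either genotype. The hippocampal point for Shox2, at 3.28, is set against WT arrays of which none was well above background, so it stands for a fold of at least 1.88 only; the tested cerebellar values lie between -0.73 and 0.90.

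Levels were also compared between the tissues, probe by probe. The Irx1 probe at base 1947 averaged 6.25 in WT hippocampus, 8.19 in En2-/- hippocampus and 12.14 and 12.13 in WT and En2-/- cerebellum. Foxp2 on its brighter probe averaged 7.30 and 7.28 in hippocampus against 10.23 and 10.14 in cerebellum. For Shox2, Irx1, Irx2 and Foxp2 every cerebellum array was above every hippocampus array of either genotype on these probes.

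The order of the groups was different for Rgs16 and Ramp3. Rgs16 averaged 9.54 in WT hippocampus, 9.92 in En2-/- cerebellum, 10.42 in WT cerebellum and 10.75 in En2-/- hippocampus, and the last pair overlapped. Ramp3 ran in the same order, from 9.47 through 10.25 and 10.63 to 11.05, with overlap between each of the neighbours above the WT hippocampus. Lhx9 was the one gene whose brightest probe averaged higher in hippocampus than in cerebellum in both genotypes, 10.07 and 9.93 against 9.31 and 9.36.

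As a mean over the 10 genes, each taken as the mean of its probes and set against the WT mean of the tissue, the WT hippocampus arrays lay at -0.09, -0.07 and 0.16 and the En2-/- hippocampus arrays at 1.29, 0.85 and 1.44. Readings of probes not well above background entered these means. So read, all 10 genes were above their WT mean on En2-/- replicate 1, 7 on replicate 2 and 9 on replicate 3. For Foxp2 on replicates 1 and 2 this came from its dimmer probe. The brighter Foxp2 probe read 7.25 and 7.17 there, against a WT mean of 7.30. In the cerebellum the WT arrays lay at 0.04, 0.13 and -0.17 and the En2-/- arrays at -0.19, 0.12 and 0.12, which overlapped. The mean difference was 1.19 in hippocampus and 0.02 in cerebellum. Restricted to the tested probes, the hippocampal mean was 1.28, and it was 0.70 with normexp and 0.71 in the authors' processed values.

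Co-variation across the 6 hippocampus arrays was described with each gene read by its brightest probe. Among the 15 pairs of Shox2, Irx1, Irx2, Rgs16, Ramp3 and Tcf7l2, whose genotypes did not overlap, Pearson's r ran from 0.59 to 0.98 with a median of 0.92. These values hold the genotype difference by which the genes were chosen and by which they are grouped here. Tnnt1 had r from 0.60 to 0.82 with these 6 genes. Among the 6 pairs of Tnnt1, Lhx9, Foxp2 and Amotl1 r ran from -0.12 to 0.47. All pairs share the same 6 arrays, so that the values are a description.

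With each genotype's mean removed, the same 15 pairs had a median r of 0.32, ranging from -0.59 to 0.83, and 8 of the 15 were above 0. The 6 pairs of the other genes had a median of 0.35, with 5 above 0. The highest of all pairs were Ramp3 with Amotl1 at 0.93 and Shox2 with Lhx9 at 0.91. Rgs16 and Ramp3 kept an r of 0.82, Rgs16 and Tnnt1 one of 0.78, and the chromosome 13 neighbours Irx1 and Irx2 one of 0.81. Shox2 and Irx1, at 0.95 over the 6 arrays, had -0.02. In the cerebellum the 15 pairs had a median r of -0.08 over its 6 arrays, while Rgs16 and Tnnt1 stood at 0.91 and Irx1 and Irx2 at -0.08.

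**Figure D3:**
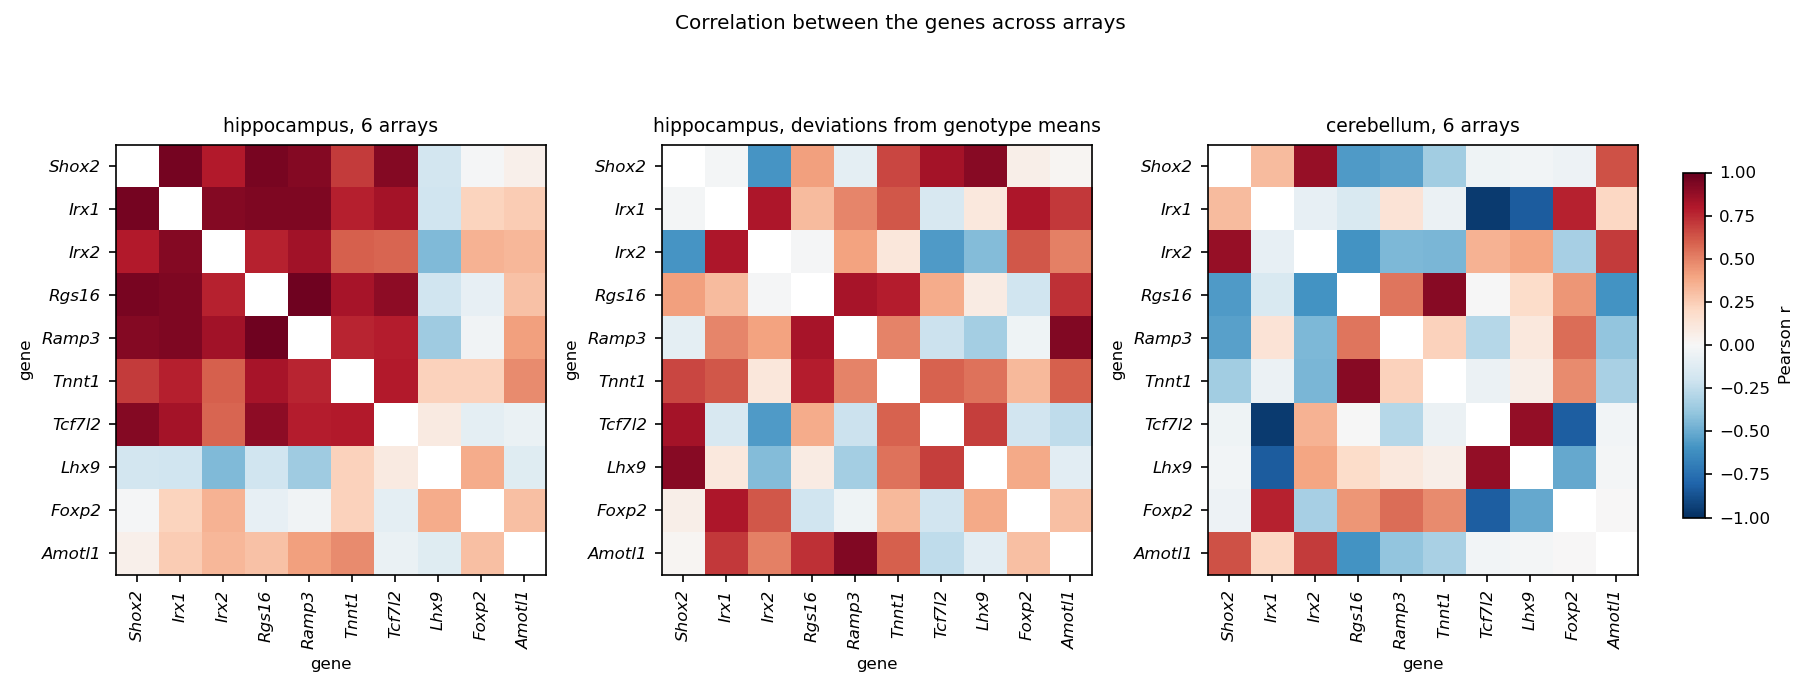
Pearson's r between the 10 genes, each by its brightest probe, over the 6 hippocampus arrays (left), over the deviations of those arrays from their genotype mean (middle) and over the 6 cerebellum arrays (right); both axes list the genes and colour runs from -1 (blue) to 1 (red). The block of high r from Shox2 to Tcf7l2 on the left, with a median of 0.92 for the pairs without overlap between genotypes, falls to a median of 0.32 in the middle panel.

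En2-/- replicate 2 was the lowest of the 3 mutant hippocampi for Shox2, Irx1, Rgs16, Ramp3, Tnnt1, Tcf7l2, Lhx9, Foxp2 and Amotl1 on their brightest probes, and Irx2 was the exception. The same array stood apart in choroid plexus genes, whose mean over 11 genes was -2.83 on it against 1.22 and -0.65 on the other En2-/- arrays and -0.58, -0.04 and 0.62 on the WT arrays. The summed normalized intensity of those genes ran from 21744 to 48742 in WT and from 4103 to 80954 in En2-/- hippocampus, and the transthyretin gene Ttr, the major secreted product of the choroid plexus, read 10.25 on that array against 13.52 to 15.11 on the other 5. Against 2.13% of all probes called in hippocampus and 0.579% in cerebellum, none of the 11 genes passed the test. Their part in the differences of the 10 genes was not tested. By the tested probes, the mean hippocampal difference over the 10 genes was 1.51 without this array, against 1.28 with it.

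Other genes known for thalamic expression, 16 on the list, were read in the same way. The list was drawn up with earlier results of these arrays known, so its counts are no independent evidence. Of 15 with a tested probe, 5 passed limma's test, all higher. By probe that was 5 of 31, against 0.858% of all probes called higher. Of the 31 probes, 25 had a higher mean in En2-/-, with a median difference of 0.70 against 0.01 over all probes. Every En2-/- array was above every WT array on 16 of the 31 probes and below on 0, against 13.8% and 13.9% of all probes. In the cerebellum, where 0.579% of all probes were called, 0 of the 16 genes passed. There 22 of 34 probes had a lower mean, with a median of -0.16.

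The 5 genes were the actin-binding proteins Synpo2 and Nexn, the neuronal membrane protein Slitrk6, the GTPase Rab37 and the tight junction scaffold Inadl (now Patj). Synpo2 read 9.03, 9.07 and 9.54 in WT and 12.18, 10.78 and 11.85 in En2-/- hippocampus, a difference of 2.39 (SE 0.36, adjusted p = 0.022 by limma). Nexn rose by 2.01 (SE 0.30, adjusted p = 0.021 by limma), Rab37 by 1.82 (SE 0.33, adjusted p = 0.038), Slitrk6 by 1.80 (SE 0.24, adjusted p = 0.016) and Inadl by 1.55 (SE 0.27, adjusted p = 0.034), all by limma. In Synpo2, Nexn, Rab37 and Inadl the lowest En2-/- array was replicate 2. A second detected Synpo2 probe differed by -0.34 and a second Inadl probe by -0.16, and neither passed.

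The number of genes called on this list depended on the arrays and the fit. It was 5 to 7 under the other scalings and background correction, in the authors' processed values, with 12 arrays in the fit and without En2-/- replicate 2. With the slide as a block, 1 of the genes on the list was still called, Synpo2. Without WT replicate 1 or En2-/- replicate 3 the count was 0, without WT replicate 2 it was 1, and without WT replicate 3 or En2-/- replicate 1 it was 3, while the median difference of the list stayed between 0.52 and 0.77. With no filter on dim probes the count was 0.

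Genes of neighbouring regions did not pass the test in the hippocampus, where 2.13% of all probes were called. At that share, 0 calls among so few genes do not set these lists apart from all probes. The habenula list, for the small nuclei beside the thalamus, had 5 of 8 genes tested and 0 called, with a median difference of 0.04. Of its nicotinic receptor genes, Chrna3 and Chrnb3 were well above background on no hippocampus array and Chrnb4 on En2-/- replicate 1 alone. The mean over all 8 genes, undetected ones included, was 0.34, 0.58 and 0.75 on the En2-/- and -0.09, -0.04 and 0.14 on the WT arrays, without overlap, which was not tested. Its summed intensity ran from 1526 to 1632 in WT and from 1206 to 1667 in En2-/-. The hypothalamus, striatum, midbrain and cerebral cortex lists had 0 called of 6, 6, 3 and 9 genes tested, with medians of 0.19, -0.04, 0.75 and -0.15. The cerebellum list had 0 called of 4 tested, with a median of 0.15, and its granule cell gene Gabra6 was well above background on En2-/- replicate 1 and on no other hippocampus array. The 3 midbrain probes, all with a higher mean in En2-/-, included Tfap2b at 0.75 (SE 0.21, adjusted p = 0.11 by limma).

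Markers of the hippocampus itself had lower means in En2-/- hippocampus on 14 of 18 probes, with a median of -0.57 against 0.01 over all probes. Every En2-/- array was below every WT array on 6 of the 18 probes and above on 0, against 13.9% and 13.8% of all probes. None of the 11 genes tested passed, against 2.13% of all probes called. The brightest were Wfs1, the CA1 marker, at 0.10 (SE 0.21), the zinc finger gene Zbtb20 at -0.94 (SE 0.28, adjusted p = 0.12 by limma) and the dentate gyrus homeobox gene Prox1 at -0.13 (SE 0.22), each on its brightest probe. The other detected probes gave -0.74 and -0.64 for Prox1 and 0.31 for Zbtb20, and none passed. The summed intensity of the list ran from 42004 to 53978 in WT and from 42428 to 46135 in En2-/- hippocampus. The part of this shift, or of how much neighbouring tissue each dissection held, in the differences of the 10 genes was not tested.

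**Figure D4:**
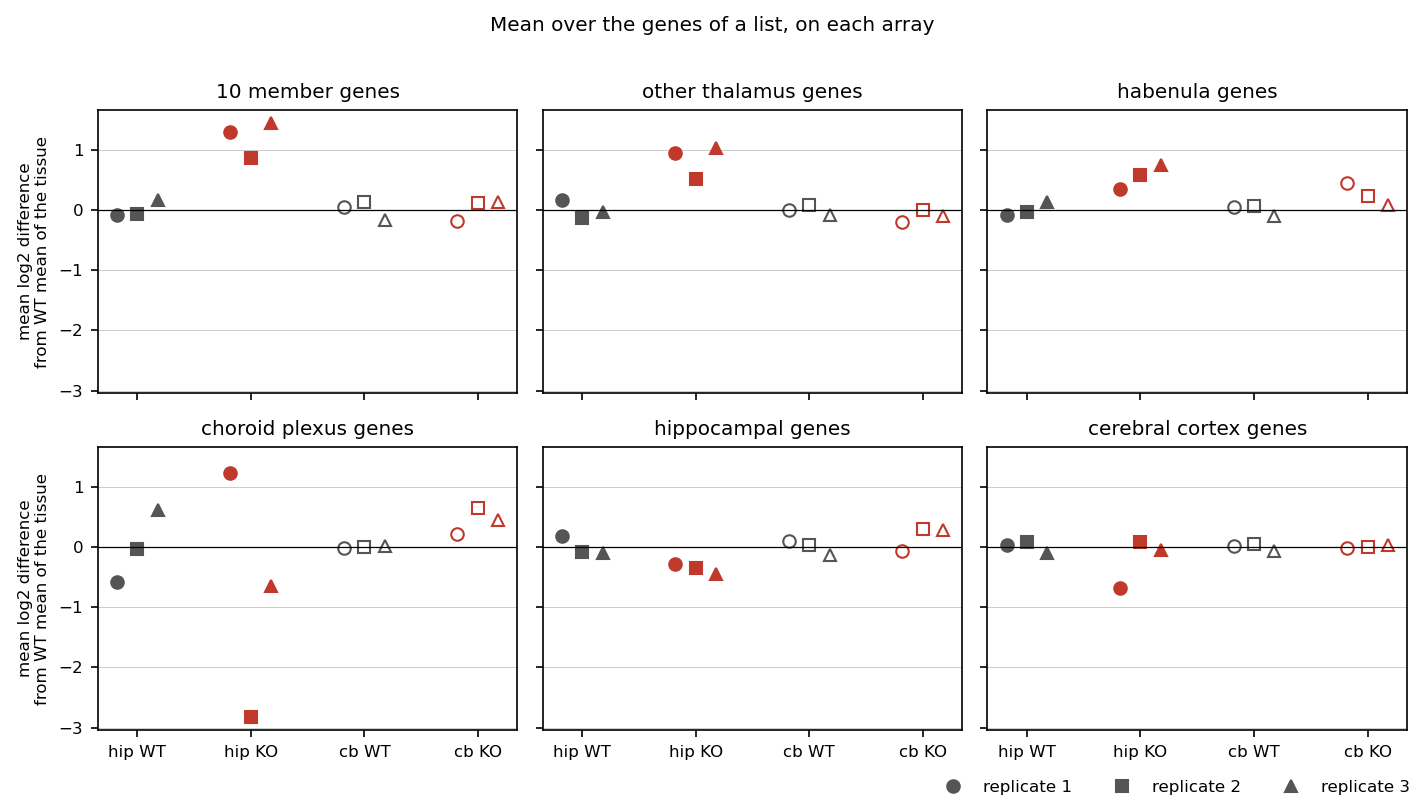
Mean log2 difference from the WT mean of the tissue (vertical axis, same scale in all panels) over the genes of 6 lists on each of the 12 arrays; hip, hippocampus; cb, cerebellum; grey, WT; red, KO; filled, hippocampus; open, cerebellum; marker shape, replicate number. The 10 genes lie at 0.85 to 1.44 on the KO hippocampus arrays, with the other thalamus genes at 0.51 to 1.02, whereas the choroid plexus genes spread from -2.83 to 1.22.

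No relative or partner of the 10 genes passed the test in the full comparison. The 25 genes on that list, which include other Iroquois, RGS, RAMP, troponin and Foxp genes, had 0 calls among the 22 tested in hippocampus and 0 among the 24 tested in cerebellum, with median differences of 0.05 and -0.10. Over all probes 2.13% and 0.579% were called, so that 0 calls do not set this list apart. Without En2-/- replicate 2 the LIM homeobox gene Lhx5 was called in hippocampus at 1.44 (adjusted p = 0.038 by limma), and with no filter on dim probes the calcitonin receptor-like gene Calcrl at -1.60 (adjusted p = 0.027 by limma), both named after their values were seen. Irx3 and Irx5, the nearest Iroquois relatives, were well above background on no hippocampus array of either genotype. Among the cerebellar markers the Purkinje cell gene Car8 was called in the cerebellum on 1 of its 2 probes, at -2.48 (SE 0.34, adjusted p = 0.024 by limma), and its brighter probe differed by -0.35. That call was kept in 7 of 14 alternative fits and was lost, among others, without any of the 3 En2-/- arrays or without WT replicate 2 or 3, with adjusted p values of up to 0.14 by limma.

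The genes whose profile over the 6 hippocampus arrays was most like the mean of the 10 were looked for among 8535 detected probes that ranged over at least 1 log2 unit. Pearson's r exceeded 0.95 for 111 of them. The highest were Inadl, 1700052K11Rik, Ikbip, Scyl2, Serpina1d and Ntng1, each at 0.99. The mean profile holds the genotype difference that chose the 10 genes, so a high r means first of all a higher reading in En2-/-, and nothing further is read from the names. Ntng1 is a membrane-anchored netrin that guides axons.

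Scyl2, a kinase-like protein of vesicle traffic, read 6.82, 6.75 and 6.85 in WT and 8.81, 8.19 and 8.86 in En2-/- hippocampus. Serpina1d, a protease inhibitor of the alpha-1-antitrypsin family, read 5.07, 5.23 and 5.18 in WT and 8.94, 7.48 and 9.47 in En2-/-. On both, replicate 2 was the lowest mutant array. Ikbip and Scyl2 lay 1458 kb apart on chromosome 10, and Serpina1d lay on chromosome 12, outside the chromosomes that carry the 10 genes.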

How the data were processed

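The authors hybridised Cy3-labelled cRNA to 1-colour Agilent arrays and deposited scanner files, made with Agilent Feature Extraction 10.7.3.1 per the file headers, whose intensity values are background-subtracted, and a table of log2 values that the authors had filtered with Agi4x44PreProcess and quantile normalized, with medians of 9.50 to 9.58 per array and correlations of 0.988 to 0.993 with the normalized values used here. The deposited processed intensity was taken to log2 and quantile normalized over the 12 arrays, outlier spots were left out and spots of a probe averaged. Gene names are those of the newer annotation, in the cerebellum files, and gave the 20 member probes the same names as the older one. A probe entered a fit where all 3 arrays of either genotype read it well above background. WT and En2-/- were compared within each tissue with limma 3.58.1 in R 4.3.3 (lmFit, eBayes, genotype only), with Benjamini-Hochberg adjustment over all named probes tested and calls at an adjusted p under 0.05. The fit was tested on simulated data.

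The 10 genes, the other gene lists and the tests were chosen with earlier results of these data known. Named genes were all probes of the 10 genes, of each other list the genes called (at most 6) or otherwise the 3 brightest, and the 6 genes most like the mean member profile. Other genes and markers named for their level were chosen after their values were seen. Between 62.3% and 73.0% of spots per array were well above background and 0 were saturated, and the number of arrays, 3 per group, limits the precision. Each of the 3 slides held 1 array of each group in a fixed position, so position and group cannot be told apart. The p-values measure the spread between 3 mice per genotype.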

Additional observations from a re-analysis of the deposited data

Results flagged for a closer look

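On 2 probes every En2-/- hippocampus array lay above the hippocampal WT mean and every En2-/- cerebellum array below the cerebellar WT mean. These were Rgs16, where the difference in hippocampus exceeded that in cerebellum by 1.71 on the log2 scale, and Ramp3, where it did so by 1.95. Ramp3 met this narrowly, since En2-/- cerebellum replicate 3 read 10.6257 against a WT mean of 10.6275 and the genotypes overlapped there. The hippocampal part of the criterion is the difference that chose the genes, and its share over all probes is not given. The Lhx9 probe at base 812 ran the opposite way, below the WT mean on every En2-/- hippocampus array and above it on every En2-/- cerebellum array. Its difference between the tissues was -0.97, and the genotypes overlapped in both tissues. The brightest Lhx9 probe differed by -0.13 in hippocampus and 0.05 in cerebellum, and the probe at base 790 by -0.47 and -0.20. The difference between the tissues was not tested, since the hippocampal values chose the genes. Groups of 3 arrays are too small for a test of single outlying arrays.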

How the results depend on the processing

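The differences of the 14 tested member probes in hippocampus were recomputed 201 times and moved by more than the spread between replicates in 9. Those came with another scaling, with normexp or with the authors' processed values, on Shox2, Irx1, Irx2 and Tcf7l2 probes. Their mean over genes was 0.70 with normexp and 0.71 in the authors' processed values, and 1.15 to 1.51 with each array left out. With only probes well above background on all arrays the mean was 0.92 over 8 genes. Shox2 and Irx2 dropped out there, and the other probes kept their values. No member probe was called in cerebellum under any alternative, and the lowest adjusted p by limma was 0.23. Leaving out arrays turned the sign for 7 of the 18 cerebellar probes, with ranges of -0.39 to 1.23 and -0.11 to 0.073 for Irx1, -0.074 to 0.84 for Irx2, -0.37 to 0.30 and -0.043 to 0.36 for Tcf7l2, and -0.73 to 0.32 and -0.039 to 0.21 for Lhx9. Calls over all probes in hippocampus were 200 with 1 probe per gene, 282 with 12 arrays in the fit, 163 with no filter and 79 to 309 with an array left out. In cerebellum they were 232 with 12 arrays in the fit, 93 with probes above background on all arrays, 58 with no filter and 51 to 112 with an array left out. Of the other thalamus genes, 0 were called with no filter and 0 to 5 with an array left out. The cause of these changes was not tested. Some of these fits held fewer arrays or probes, while the fit with no filter held more probes and that with 12 arrays more arrays.

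The replicate number is also the slide, and no WT array correlated best with the En2-/- array of its own number. Deviations from group means of same-numbered WT and En2-/- arrays correlated at -0.18, 0.07 and -0.15 in hippocampus and at -0.13, 0.08 and -0.0047 in cerebellum. In both tissues WT 1 correlated best with En2-/- 2, WT 2 with En2-/- 3 and WT 3 with En2-/- 1. These values were 0.30, 0.24 and 0.37 in hippocampus and 0.19, 0.19 and 0.23 in cerebellum. Deviations from a mean of 3 arrays constrain each other, so the correlations cannot decide whether arrays are paired. With the replicate block 134 probes were called in hippocampus and 105 in cerebellum, and 1 of the other thalamus genes.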
